A study of Sus scrofa with 23 samples.

Results

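Apoptosis and stress-survival genes were followed in pig bone marrow-derived macrophages exposed to lipopolysaccharide (LPS), a component of the bacterial outer membrane that activates macrophages. The members were 8 of the 6765 named genes on the array, taken by symbol: PMAIP1, BID, BAX, BCL2L1, BCL2L11, CFLAR, GADD45A and GADD45B. They were measured by 13 of 23999 probe sets. The cells came from 3 Large White x Landrace F1 pigs, labelled male, female and male, and were grown from bone marrow with recombinant human CSF1, a macrophage growth factor, for 5 to 7 days. Per the labels, unstimulated cultures (0 h) were compared with cultures given 100 ng/ml LPS of Salmonella enterica serotype minnesota Re 595 for 2, 7 or 24 h. These groups held 6, 6, 6 and 5 arrays, from 3 pigs with duplicate cultures, except that 1 pig gave a single culture at 24 h. The cultures are not a sorted population and may hold cells other than macrophages. Each array measured the RNA of a whole culture, so fewer cells of a type and less RNA per cell cannot be told apart.

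Cell death by the mitochondrial route is set by the BCL2 family. BH3-only proteins such as PMAIP1 (NOXA), BID and BCL2L11 (BIM) promote the opening of the outer mitochondrial membrane by BAX, and BCL2L1 (BCL-XL) opposes it. Death receptors reach the same end through caspases, which CFLAR (c-FLIP) holds back, and BID links both routes. GADD45A and GADD45B are small stress-induced proteins that act on MAP kinase signalling, the cell cycle and DNA repair. In macrophages, LPS is known to induce survival genes through NF-kB together with death-promoting ones.

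The labels did not hold up against the arrays, which limits every statement about time. EIF1AY, a Y-linked gene, lay between 3.60 and 4.08 log2 units on 8 arrays and between 8.16 and 9.45 on 15, and went against the labelled sex on 8 of 23. Labelled duplicate cultures correlated at 0.9745 to 0.9899 over the probe sets of other genes, and none of these 11 pairs was a pair of mutually most similar arrays. The 11 mutually most similar pairs correlated at 0.9952 to 0.9975. All 11 were neighbouring columns of the deposited table (1 and 2, 3 and 4, and so on to 21 and 22), and 0 shared a labelled time. If the columns ran by time, then pig, then culture, EIF1AY would match the sex of the pig on 23 of 23 arrays. No source used here states that order. Comparisons between times therefore follow the labels, and values are then described by the position of the array in the table, from column 1 to column 23, with no time assigned to a position. By the labels, columns 1 to 8 belong to pig 1, columns 9 to 16 to pig 2 and columns 17 to 23 to pig 3.

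Of 10 listed macrophage markers, 6 were measured. AIF1, a macrophage calcium-binding protein, lay between 12.62 and 13.36 log2 units, CD163, a haemoglobin scavenger receptor, between 7.85 and 11.36, and CD14, the LPS co-receptor, between 7.135 and 10.998. FCGR1A, an Fc receptor, lay between 7.04 and 8.83, MRC1, the mannose receptor, between 6.20 and 8.71, and ITGAM (CD11b) between 4.39 and 5.03. CD3E, part of the T cell receptor, lay between 4.21 and 4.99.

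The means of several marker lists differed with the position of the array. The mean level of the macrophage markers ran from 8.09 to 8.63 in columns 1 to 6 and from 8.53 to 9.08 in columns 7 to 12. It ran from 8.27 to 9.22 in columns 13 to 18 and from 8.74 to 9.23 in columns 19 to 23, so the last run lay above the first. Of its genes, CD14 (7.135 to 8.589 in columns 1 to 6, 9.124 to 10.280 in columns 19 to 23) and FCGR1A (7.038 to 8.081 and 8.379 to 8.828) were higher there without overlap. CD163 only met its first run, at 9.857. AIF1 (12.624 to 12.970 and 12.804 to 13.361) and ITGAM (4.393 to 4.926 and 4.507 to 5.033) overlapped, as did MRC1, at lower levels (7.014 to 8.418 and 6.202 to 8.083). The mean of 6 T and NK cell markers, of 7 listed, ran from 4.52 to 4.78, from 4.72 to 5.09, from 4.96 to 5.42 and from 4.80 to 5.59 in the runs from first to last. The last 2 runs lay above the first. Among the genes of that list CD2 alone did so, and it had the widest range, from 5.18 to 10.45. It lay between 5.183 and 5.626 in columns 1 to 6. In columns 13 to 18 it lay between 7.374 and 8.835, and in columns 19 to 23 between 6.130 and 10.454. CD3E, CD3D, CD3G, CD247 and KLRK1 overlapped with columns 1 to 6 in both of these runs. The mean of 3 erythroid and platelet markers, of 6 listed, lay between 6.78 and 6.96 in columns 1 to 6. It lay between 6.25 and 6.43 in columns 19 to 23, without overlap. Of the 3, only HBB, a haemoglobin chain, was lower there without overlap, with 7.90 to 8.35 and 6.01 to 6.82. ALAS2 (5.323 to 5.619 and 5.480 to 5.827) and ITGA2B (6.636 to 6.965 and 6.752 to 7.036) overlapped, at slightly higher levels in the last run. The means of 5 granulocyte markers, of 7 listed (8.06 to 9.32 in columns 1 to 6, 8.67 to 9.78 in columns 19 to 23), of 5 stromal markers, of 6 listed (6.09 to 8.37 and 5.46 to 7.70), of 2 B and plasma cell markers, of 6 listed (6.18 to 6.67 and 5.69 to 6.39), and of all 4 endothelial markers listed (6.06 to 6.30 and 6.05 to 6.29) overlapped between these runs. Within the granulocyte list S100A9 and ELANE did not overlap, and they went opposite ways. S100A9 was higher in the last run, with 9.46 to 11.39 in columns 1 to 6 and 13.56 to 13.73 in columns 19 to 23. ELANE was lower there, with 6.891 to 8.102 and 5.055 to 5.990. PRTN3, S100A8 and S100A12 overlapped between these runs. The part of other cells in the levels given next was not tested.

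Compared by labelled time, 0 of the 8 genes differed. The limma F test over all times gave each of them an adjusted p of 1, and the lowest adjusted p for 2, 7 or 24 h against 0 h was 0.914. No member had an unadjusted p under 0.05 in any of these 4 tests, the lowest being 0.0892. Over all 23999 probe sets the tests called 0.00833% over all times, 0.0125% at 2 h, 0% at 7 h and 0.00417% at 24 h, so a count of 0 among the members is near the background and no result about them. The counts of probe sets with an unadjusted p under 0.05 were 694, 521, 754 and 986 in that order. Each is less than a share of 0.05 of the 23999 probe sets, which would pass on average if none differed. They are therefore no sign of differences between labelled times. The largest difference between labelled time means was 0.64 ± 0.39 log2 units (SE, n = 3 labelled pigs), for BID between 24 h and 0 h. It rested on which pigs and arrays entered: the largest BID difference between any labelled times was 0.73 without labelled pig 1, 1.13 without pig 2, 0.14 without pig 3 and 0.24 without the 8 arrays against their labelled sex. Without pig 1 the largest difference of GADD45B was 1.32 in place of 0.22. Without those 8 arrays, again 0 members were called in each of the 4 tests. Because the labels failed the check above, these tests show neither a response of these genes to LPS nor its absence.

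The labelled groups held widely different arrays. PMAIP1 ran from 7.04 (median 11.08) to 12.78 on the arrays labelled 0 h, and from 6.65 (median 11.05) to 12.75 at 2 h. At 7 h it ran from 7.68 (median 10.37) to 11.88, and at 24 h its 5 values were 7.52, 10.07, 11.36, 12.02 and 9.71. GADD45B ran from 5.42 (median 9.44) to 10.60 at 0 h, from 5.60 (median 9.30) to 10.45 at 2 h and from 6.10 (median 8.55) to 10.58 at 7 h. Its 5 values at 24 h were 6.03, 10.10, 10.50, 9.36 and 6.99. For each of the 8 genes, every pair of labelled times overlapped.

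**Figure D1:**
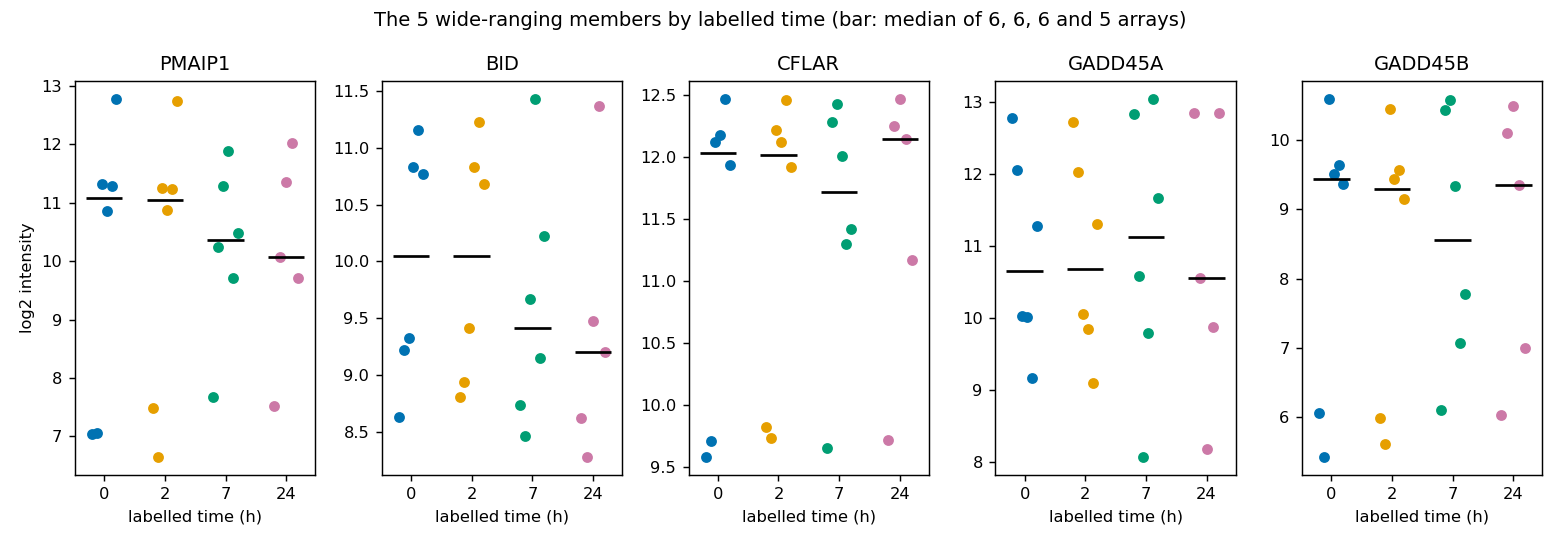
Log2 intensity (vertical axis) of the 5 members with the widest range, by labelled time in hours (horizontal axis). Each point is an array and each bar the median of 6, 6, 6 and 5 arrays; low and high arrays stand side by side under every labelled time, and all groups overlap.

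The 8 genes fell into a group of wide and a group of narrow range over the 23 arrays. PMAIP1 spanned 6.13 log2 units (70.3-fold in intensity), GADD45B 5.18 (36.2-fold), GADD45A 4.97 (31.4-fold), BID 3.15 (8.87-fold) and CFLAR 2.89 (7.42-fold). BCL2L1 spanned 0.86, BAX 0.61 and BCL2L11 0.56. The median was 3.02 over the members and 0.96 over all named genes. At least 2 log2 units were spanned by 5 of 8 members (62.5%), against 897 of 6765 named genes (13.3%). The members were chosen with earlier results of these data known, so this share does not speak for such genes in general. The genes that spanned widely comprised 2 of the 3 BH3-only proteins, the death receptor inhibitor and both GADD45 genes. The pore former BAX and its opponent BCL2L1 did not span widely. BCL2L11, the other BH3-only gene, had a mean of only 5.82, under the level of 6 by which dim probe sets were left out in an alternative. Whether BCL2L11 was detected was not tested, so its narrow range may not reflect a steady level.

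The wide ranges were much larger than the differences within the most similar pairs. Between the arrays of a pair, PMAIP1 differed by 0.08 at the median and 0.44 at most, GADD45B by 0.08 and 0.34, GADD45A by 0.04 and 0.20, BID by 0.09 and 0.28, and CFLAR by 0.07 and 0.24. For BCL2L11 the median pair difference was 0.22 and the highest 0.40, against a range of 0.56. For BAX they were 0.08 and 0.32 against 0.61, and for BCL2L1 0.14 and 0.37 against 0.86. The pairs were picked for their similarity on the probe sets of other genes, so they are a low guide to the spread between cultures.

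**Figure D2:**
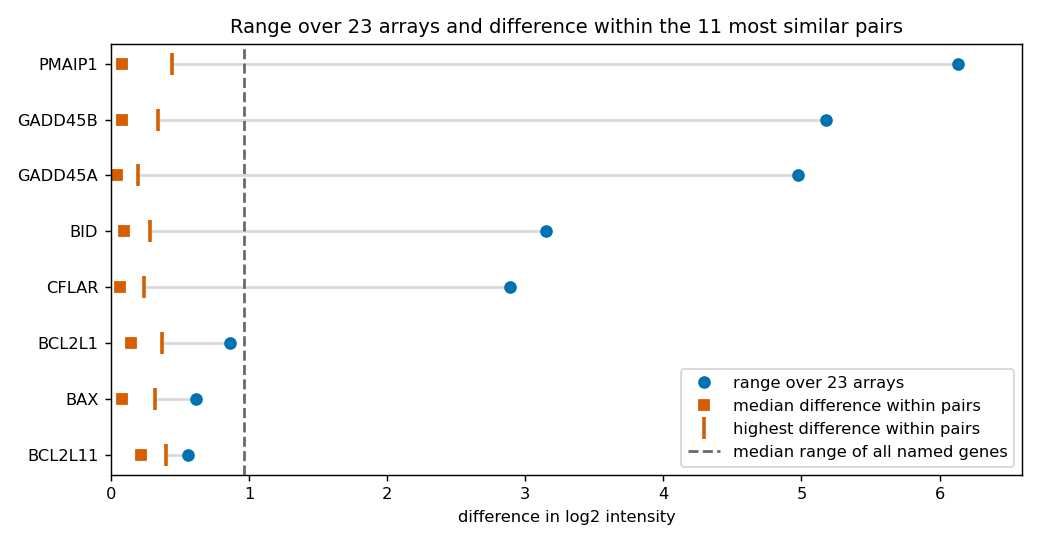
For each member (vertical axis), the range over the 23 arrays (circles) and the median (squares) and highest (ticks) difference within the 11 most similar pairs, in log2 units (horizontal axis). The dashed line is the median range of 6765 named genes, 0.96; 5 members lie far to its right and BCL2L1, BAX and BCL2L11 to its left.

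Among the BH3-only genes, PMAIP1 encodes NOXA, which binds and disables the survival protein MCL1. On columns 1 to 6 its log2 intensity ran from 6.65 (median 7.27) to 7.68, on columns 7 to 12 from 10.07 (median 11.28) to 11.36, and on columns 13 to 18 from 10.86 (median 11.26) to 12.02. On columns 19 to 23 it was 9.71, 9.71, 12.78, 12.75 and 10.48. All 17 later arrays therefore lay above the first 6, with a gap of 2.03 log2 units between the highest of columns 1 to 6 and the lowest of columns 19 to 23. Its highest values of all were those of columns 21 and 22.

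BID, the BH3-only protein that caspases cleave into its active form, had another profile. It ran from 8.62 (median 8.78) to 9.22 on columns 1 to 6 and from 8.28 (median 9.37) to 9.67 on columns 7 to 12, and these overlapped. On columns 13 to 18 it ran from 10.83 (median 11.20) to 11.42, above every array of the first 12 columns. On columns 19 to 23 it was 9.15, 9.20, 10.77, 10.68 and 10.22. The other probe set of BID ran from 7.44 to 8.07 on columns 1 to 6, from 7.31 to 8.71 on columns 7 to 12, from 9.96 to 10.57 on columns 13 to 18 and from 7.94 to 9.90 on columns 19 to 23. Both probe sets thus had columns 13 to 18 apart from columns 1 to 6 and the other runs overlapping with them.

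BCL2L11, which encodes BIM, ran from 5.52 to 5.87 on columns 1 to 6, from 5.52 to 5.92 on columns 7 to 12, from 5.66 to 6.07 on columns 13 to 18 and from 5.68 to 6.04 on columns 19 to 23. All runs of columns overlapped. Its other probe set, at a mean of 4.75, also spanned little (0.49), although columns 13 to 18 (4.769 to 4.978) and columns 19 to 23 (4.711 to 4.905) did not overlap with columns 1 to 6 (4.577 to 4.710).

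BAX, the protein that forms the mitochondrial pore, ran from 9.46 to 9.77 on columns 1 to 6, from 9.59 to 9.77 on columns 7 to 12, from 9.34 to 9.52 on columns 13 to 18 and from 9.58 to 9.95 on columns 19 to 23. Columns 13 to 18 lay below columns 7 to 12 but overlapped with columns 1 to 6. BCL2L1, which encodes BCL-XL, ran from 6.47 to 7.00, from 6.68 to 7.24, from 6.37 to 6.62 and from 6.47 to 6.85 on the same runs. Its other probe set had a mean of 5.74 and a range of 1.24, with 5.49 to 6.34, 5.64 to 6.42, 5.22 to 5.59 and 5.18 to 6.03. In both genes the lowest medians by run were those of columns 13 to 18, within less than 0.5 log2 units of the others.

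CFLAR, which encodes the caspase inhibitor c-FLIP, ran from 9.58 (median 9.71) to 9.82 on columns 1 to 6, from 12.12 (median 12.27) to 12.47 on columns 7 to 12 and from 12.01 (median 12.16) to 12.47 on columns 13 to 18. On columns 19 to 23 it was 11.30, 11.17, 11.94, 11.92 and 11.42. Every later array was above the first 6, by a gap of 2.30 for columns 7 to 12, 2.19 for columns 13 to 18 and 1.35 for columns 19 to 23.

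The probe sets of CFLAR disagreed on the last run. The one described above stood for the gene because it had the higher mean, 11.44 against 9.23. The other ran from 7.83 to 8.17 on columns 1 to 6, from 10.15 to 10.75 on columns 7 to 12 and from 9.77 to 10.17 on columns 13 to 18. On columns 19 to 23 it was 7.93, 7.93, 9.04, 8.84 and 8.25, so that only 3 of 5 arrays lay above columns 1 to 6. Which transcripts each probe set detects was not tested.

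**Figure D3:**
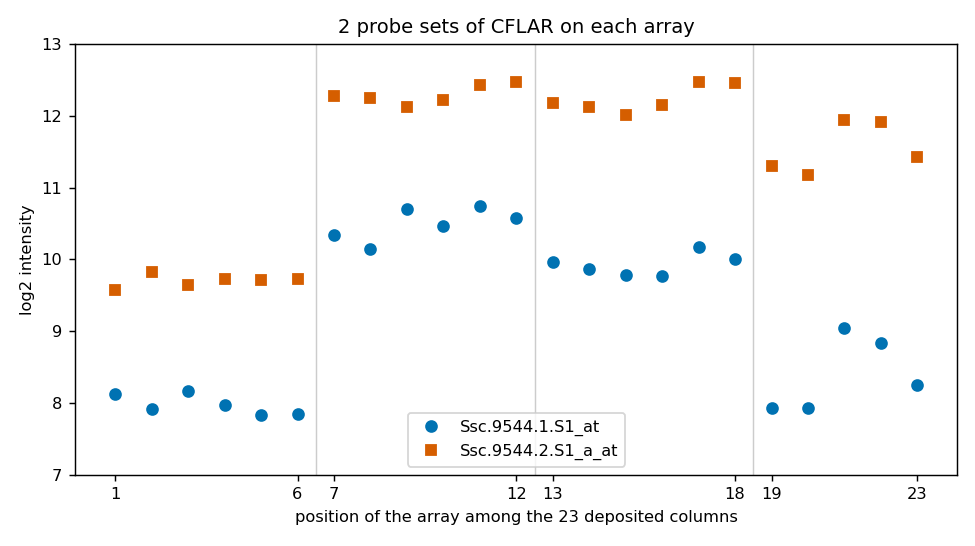
Log2 intensity (vertical axis) of the 2 probe sets named for CFLAR alone on each array, by its position in the deposited table (horizontal axis; grey lines part columns 6 and 7, 12 and 13, 18 and 19). Both are high on columns 7 to 18, but on columns 19 and 20 the lower probe set (7.93 on both) is within its levels on columns 1 to 6.

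GADD45B ran from 5.42 (median 6.01) to 6.10 on columns 1 to 6, from 10.10 (median 10.47) to 10.60 on columns 7 to 12 and from 9.34 (median 9.48) to 9.65 on columns 13 to 18. On columns 19 to 23 it was 7.07, 6.99, 9.37, 9.15 and 7.77. The gap above columns 1 to 6 was 4.0 log2 units for columns 7 to 12, the widest among the members, then 3.24 for columns 13 to 18 and 0.90 for columns 19 to 23. Its other probe set had the same order of runs, with 4.65 to 5.01, 9.30 to 9.62, 8.43 to 8.73 and 6.18 to 8.47.

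GADD45A, its paralogue, ran the other way. It ran from 12.02 (median 12.75) to 12.84 on columns 1 to 6, from 8.07 (median 10.05) to 10.58 on columns 7 to 12 and from 9.09 (median 9.82) to 10.01 on columns 13 to 18. On columns 19 to 23 it was 13.04, 12.85, 11.27, 11.30 and 11.67. Columns 7 to 12 lay below columns 1 to 6 by a gap of 1.44 and columns 13 to 18 by 2.01, while columns 19 to 23 overlapped with columns 1 to 6. It also spread widely within a run: columns 11 and 12 had 8.07 and 8.18, where columns 7 and 8 had 10.58 and 10.56.

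**Figure D4:**
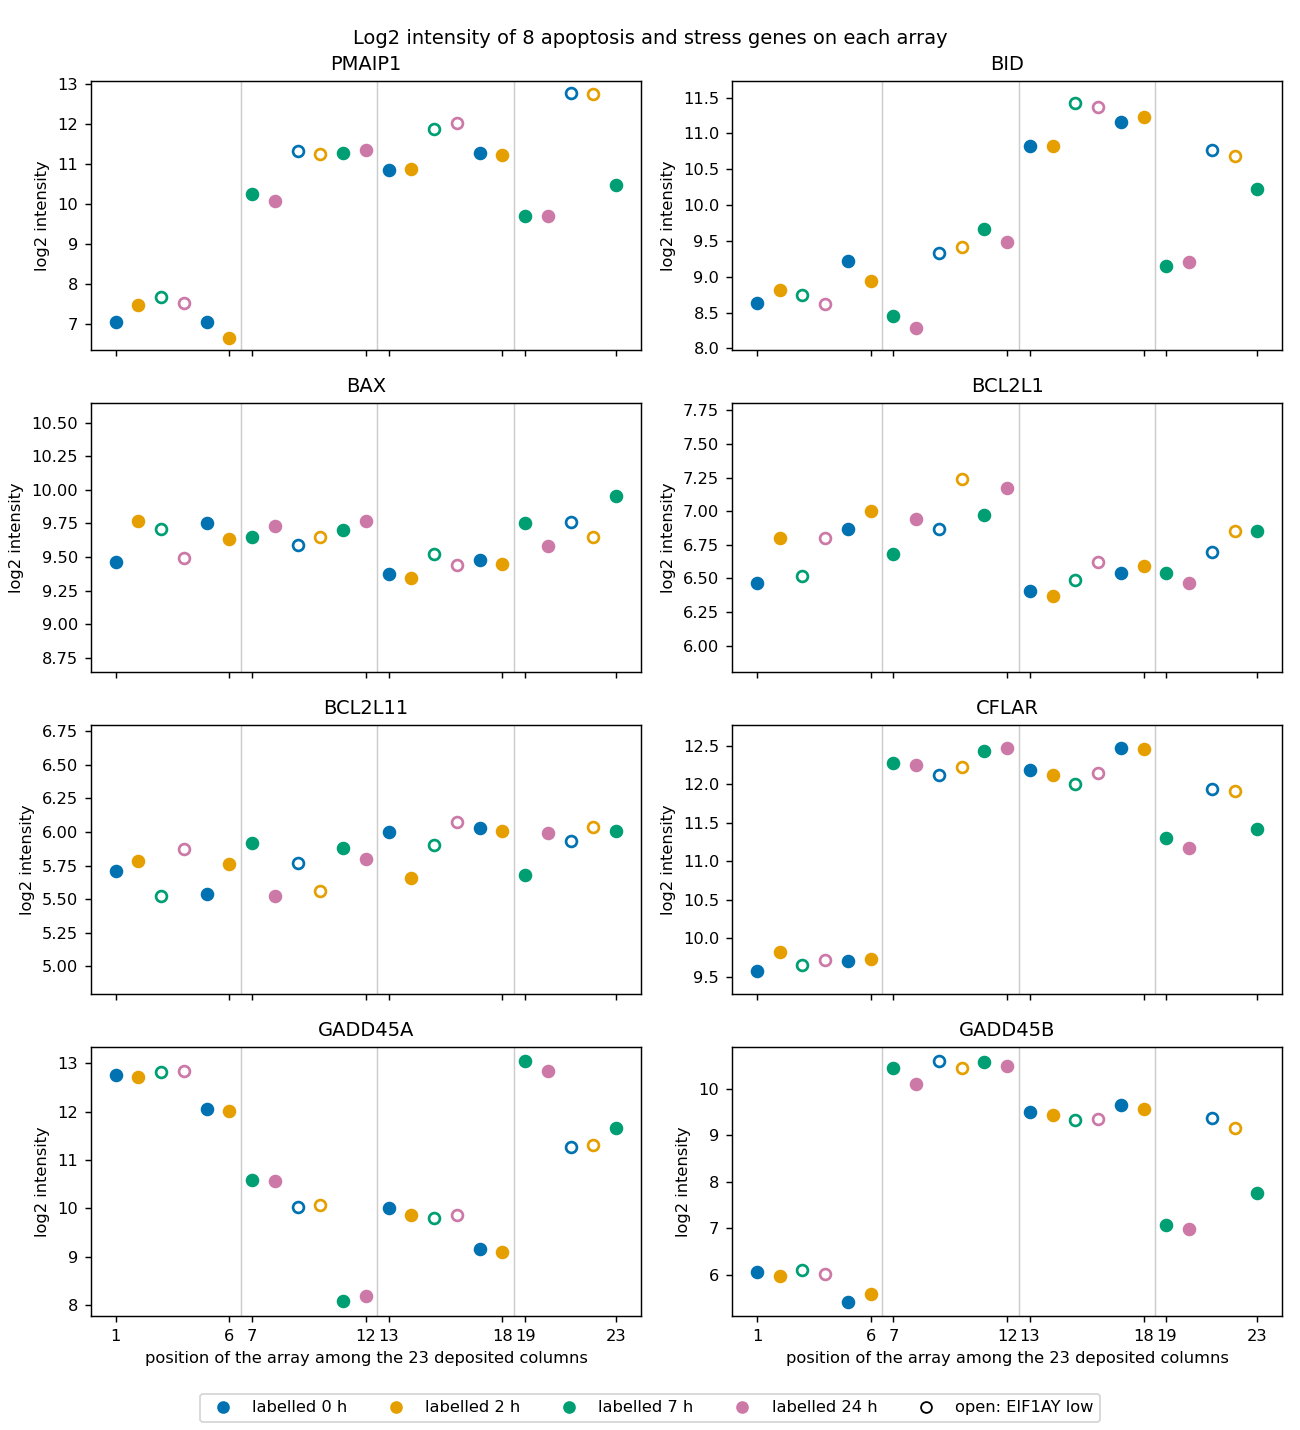
Log2 intensity (vertical axes, at least 2 log2 units tall) of the 8 members on each array by its position among the deposited columns (horizontal axis). Colour gives the labelled time and open symbols the 8 arrays with low EIF1AY. The neighbouring columns of each most similar pair, labelled with different times, lie close together. PMAIP1, CFLAR and GADD45B are low and GADD45A high on columns 1 to 6.

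Counted over the members, 3 of 8 (PMAIP1, CFLAR, GADD45B; 37.5%) had every array of columns 7 to 12 above every array of columns 1 to 6, where 5.47% of all named genes did. GADD45A alone was below, 1 of 8 (12.5%), where 11.4% of named genes were. For columns 13 to 18 the counts were 4 above, with BID added (50.0%, against 13.9% of named genes), and 1 below (12.5%, against 28.0%). For columns 19 to 23 they were 3 above (37.5%, against 13.9%) and 0 below, against 22.4%. These counts carry no test. The members and the runs of columns were chosen with earlier results of these data known. The shares above therefore cannot be read as a property of such genes. The shares below were near or under that of all genes and say nothing particular about the members.

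**Figure D5:**
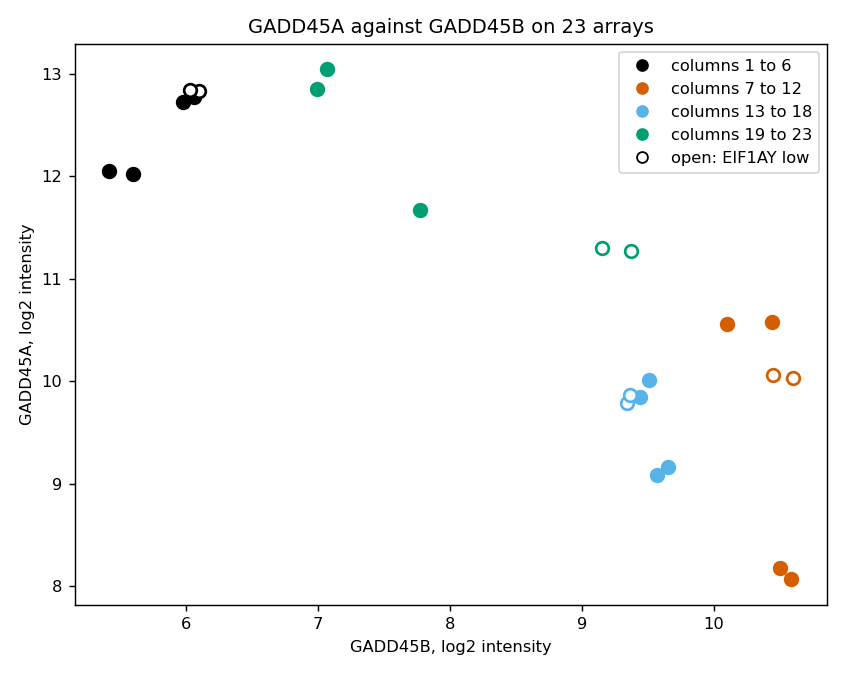
GADD45A (vertical axis) against GADD45B (horizontal axis), both in log2 intensity, on the 23 arrays coloured by run of columns, with open symbols for low EIF1AY. Columns 1 to 6 lie at low GADD45B and high GADD45A, columns 7 to 18 at high GADD45B and low GADD45A, and columns 19 to 23 between 6.99 and 9.37 in GADD45B.

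Over the 23 arrays, the order of CFLAR was like that of GADD45B (Spearman rho 0.892) and opposite to that of GADD45A (-0.854). GADD45A and GADD45B were opposed at -0.763, and PMAIP1 and BID were alike at 0.726. These values describe 23 arrays of which 22 form similar pairs, and they have no p. Among genes that spanned at least 1 log2 unit, those most like GADD45B were PTPN1, a tyrosine phosphatase (0.954), and IRF1, an interferon-regulated transcription factor (0.950). Those most like CFLAR were DNAJB4, a heat shock co-chaperone (0.920), and again IRF1 (0.919). IRF1 ran from 8.23 to 9.43 on columns 1 to 6 and from 12.85 to 13.35 on columns 7 to 12.

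PMAIP1 was most like ARRDC4, an arrestin-domain protein (0.915), and IER3, an immediate-early survival gene (0.899). BID was most like TERF2IP, a telomere protein (0.967), and TOR3A (0.965), both highest on columns 13 to 18, with 11.61 to 11.87 and 10.10 to 10.82. GADD45A was most like TMEM138 (0.971) and TMEM86A (0.968). The narrow members had lower values: BAX with POLB, a DNA repair polymerase (0.784), and LAT (0.748), BCL2L1 with TAF4B (0.815) and POLR3D (0.809), and BCL2L11 with CDS2 (0.784) and IL7 (0.771).

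Of 50 other genes of cell death and stress signalling, 28 had a named probe set. The list was drawn up from general knowledge, but with earlier results of these data known. By labelled time, 0 of 28 passed the limma test in either direction in any of the 4 comparisons. Their median range was 1.26 log2 units, and 7 of 28 (25.0%) spanned at least 2. TNFSF10, the death ligand TRAIL, spanned the most, 8.16 log2 units, from 3.20 to 4.34 on columns 1 to 6, 4.86 to 9.03 on columns 7 to 12, 10.96 to 11.29 on columns 13 to 18 and 8.28 to 11.35 on columns 19 to 23. IER3 spanned 5.46 and ran from 6.98 to 7.75 on columns 1 to 6 and from 11.14 to 11.52 on columns 7 to 12.

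DDIT3 (CHOP), a transcription factor of endoplasmic reticulum stress, spanned 4.24 and was highest on columns 19 to 23, with 11.89 to 12.31 against 9.08 to 9.41 on columns 1 to 6. The narrowest ranges were those of FASLG, the ligand of the death receptor FAS (0.41), and TRADD, an adaptor of death receptors (0.71). FASLG lay between 3.215 and 3.621 and TRADD between 8.360 and 9.075. Whether FASLG was detected at all was not tested. In all, 7 of 28 (25.0%, against 5.47% of named genes) had columns 7 to 12 above columns 1 to 6 without overlap, 8 (28.6%, against 13.9%) had columns 13 to 18 above and 6 (21.4%, against 13.9%) columns 19 to 23. Lower without overlap were 4 (14.3%, against 11.4%), 7 (25.0%, against 28.0%) and 7 (25.0%, against 22.4%), respectively, which is near the share of all named genes and no result about the list. None of these counts carries a test.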

How the data were processed

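The data were 23 Affymetrix porcine arrays of macrophage RNA. The authors deposited 1 intensity per probe set and array, unlogged. The submitters' processing notes name affy and RMA without versions, which are therefore not given here. RMA corrects background and makes arrays comparable, so levels between arrays can be set side by side but levels of different probe sets cannot. Array medians over the probe sets kept ran from 69.24 to 73.36 intensity units. Precision is limited by the number of pigs, 3 by the labels, rather than by the 23 arrays.

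Values were taken to log2. The table held 24123 probe sets, and 124 controls among them were dropped. The platform annotation named 1 gene for 10069 probe sets and several for 198, and nothing was named from the latter. Symbols were updated by gene identifier in the RefSeq table of Sscrofa11.1. The probe set with the highest mean stood for a gene. Duplicate cultures were averaged by label to 12 pig-by-time means and fitted in limma 3.58.1 under R 4.3.3, with terms for time and for pig, which left 6 residual degrees of freedom. Benjamini-Hochberg adjustment ran over 23999 probe sets, and calls needed an adjusted p under 0.05. The fit was tested on simulated data. The pig term rests on the series description, by which the same pigs gave every time. Deviations from time means correlated within a labelled pig, 0 h with a later time, at 0.27 to 0.97. The highest values, 0.87 to 0.97, were those of 0 h with 2 h, which by the labels are the neighbouring columns of most similar pairs. Because the labels failed the check above, these correlations cannot show that arrays share a pig.

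Members, lists and runs of columns were chosen with earlier results of these data known. The named genes were the members, EIF1AY, the 3 widest and 2 narrowest of the pathway list, and for each member the 2 genes of highest Spearman rho. CD3E, CD2, S100A9 and HBB were picked from the marker lists after their values were seen. The other measured markers of the T and NK, granulocyte, and erythroid and platelet lists were also named after that. Alternatives covered the pig term, cultures, dim probe sets, quantile normalization, left-out pigs, arrays against their labelled sex and averaging of probe sets.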

Additional observations from a re-analysis of the deposited data

How the results depend on the processing

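The count of members called by labelled time was 0 in each of the 4 tests under every alternative run; the lowest adjusted p over all times was 0.299, without labelled pig 3. BCL2L11 was not tested where probe sets with a mean under 6 were left out. Counts over all probe sets moved more. Over all times, 2 were called, against 34 with unaveraged arrays and random blocks by pig and time, 0 with first cultures only, 1 with quantile normalization and 1 without the 8 arrays against their labelled sex. At 2 h, 3 were called, against 30, 0, 0 and 0 in that order. At 24 h, 1 was called, against 15, 0, 0 and 3, and 2 with no replicate block. At 7 h, 0 were called, against 1 without those 8 arrays. Leaving out any labelled pig gave 0 in all 4 tests. Without the replicate block, 3 were called over all times and 2 at 2 h, and the block changed no member's call.

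Ranges over the arrays moved by more than the spread within pairs in 5 cases: without the 8 arrays PMAIP1 spanned 5.37, GADD45A 3.95 and BAX 0.51, and with all probe sets averaged CFLAR spanned 2.82 and GADD45B 4.89. At least 2 log2 units were spanned by 5 members without those arrays too. The counts of members that did not overlap between runs of columns were recomputed under 3 alternatives chosen after seeing the data and were equal, except for columns 13 to 18 above columns 1 to 6, which gave 5 rather than 4, with BCL2L11 added, both with probe sets averaged and without those arrays. The cause was not tested.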

Other observations

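Within columns 19 to 23, columns 21 and 22 stood apart in PMAIP1, GADD45B, BID, CFLAR and GADD45A. The share of all named genes that did so was not counted, so this is no result particular to the members. Columns 21 and 22 had 12.78 and 12.75 in PMAIP1, where columns 19, 20 and 23 ran from 9.71 to 10.48. In GADD45B they had 9.37 and 9.15, where the others ran from 6.99 to 7.77. BID (10.77 and 10.68, others 9.15 to 10.22) and CFLAR (11.94 and 11.92, others 11.17 to 11.42) were also higher there. GADD45A was lower, with 11.27 and 11.30 against 11.67 to 13.04. These are arrays of low EIF1AY. The low EIF1AY arrays of the earlier runs stood apart in some of these genes, not always the same way. In PMAIP1, columns 15 and 16 (11.88 and 12.02) lay above the other arrays of columns 13 to 18 (10.86 to 11.29), and columns 3 and 4 (7.68 and 7.52) just above those of columns 1 to 6 (6.65 to 7.48), but columns 9 and 10 lay within the other arrays of columns 7 to 12. GADD45A on columns 3 and 4 was 12.83 and 12.84, above the 12.02 to 12.77 of the others, the opposite of columns 21 and 22. In BID, columns 15 and 16 (11.42 and 11.37) lay above the others (10.83 to 11.23). GADD45B on columns 15 and 16 was 9.34 and 9.36, below the 9.44 to 9.65 of the others, and CFLAR on columns 9 and 10 was 12.12 and 12.22, below 12.25 to 12.47.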
